A study of Rattus norvegicus with 20 samples.

Results

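Small RNA libraries of 3 whole brain hemispheres, each from its own rat, were set against 14 libraries of other tissues, and the comparison covers the 577 mature miRNAs that the deposited lists name. The hemispheres were taken by their sample labels and are 3 of the 20 libraries of the series. The other libraries were 14 tissue pools (fat, heart, kidney, large intestine, liver, lung, pancreas, skeletal muscle, skin, small intestine, spleen, stomach, testes and thymus) and 3 serum libraries, which were left out here. The donors were male rats of the Long Evans stock, adolescent at postnatal day 35 and untreated. Hemispheres and pools came from the same cohort of 3 rats and so share animals, and each pool is the miRNA of 3 rats in 1 library without replicates. The question behind the profiles was from which tissues the miRNAs measured in serum could come. A hemisphere is a mixture of neurons, glia, vessels, choroid plexus and blood, and in such bulk tissue fewer cells of a type and less RNA per cell cannot be told apart.

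The hemispheres held 1019681, 485426 and 327488 mature reads, and the pools held 97782 to 2830736 (median 409270). Levels are given as RPM, the reads of a mature miRNA scaled to the mature total of its library (reads per 1000000), and 3 reads correspond to 2.94 to 9.16 RPM in a hemisphere and to 1.06 to 30.7 RPM in a pool. The pools have counting error only. The library labelled pancreas held miR-122-5p, a hepatocyte miRNA, at 10505 RPM, above the liver pool at 9151 RPM, and without this pool the numbers of called miRNAs given below were 57 higher and 70 lower, against 58 and 70 with it.

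A miRNA precursor is a hairpin that is cut to a duplex, and 1 strand of the duplex, named 5p or 3p after the side of the hairpin it comes from, is usually loaded into an Argonaute protein. Bases 2 to 8 of the loaded strand, the seed, pair with target mRNAs, so mature miRNAs with the same seed share much of their target range. In brain, miR-124 and miR-9 are known from neurons and neural progenitors, and miR-219 and miR-338 from oligodendrocytes. These 4 served as the markers of the tissue.

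The mature sequences of the most abundant seeds in the hemispheres and of the tissue markers are shown first, with the seed in capitals. They were taken from the RefSeq miRNA records of the rat build GRCr8, in which 534 of the 577 names were found, carrying 97.8% of the hemispheres' reads. The arms of miR-124 were not among the matched names.
miR-181a-5p: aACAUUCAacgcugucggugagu
miR-181b-5p: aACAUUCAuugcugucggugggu
miR-181c-5p: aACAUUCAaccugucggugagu
miR-181d-5p: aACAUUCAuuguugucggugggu
let-7f-5p: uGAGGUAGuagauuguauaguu
let-7c-5p: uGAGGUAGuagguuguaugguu
let-7i-5p: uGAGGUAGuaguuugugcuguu
miR-98-5p: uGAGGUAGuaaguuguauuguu
miR-26a-5p: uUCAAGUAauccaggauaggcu
miR-127-3p: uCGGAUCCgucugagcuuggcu
miR-182: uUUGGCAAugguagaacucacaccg
miR-9a-5p: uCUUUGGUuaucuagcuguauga
miR-9a-3p: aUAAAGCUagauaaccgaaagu
miR-219a-2-3p: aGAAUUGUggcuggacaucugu
miR-338-3p: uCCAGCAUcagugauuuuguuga
miR-338-5p: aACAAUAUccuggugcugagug
miR-128-3p: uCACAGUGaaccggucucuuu

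Reads summed over the miRNAs of 1 seed showed how concentrated the brain profile was. The seed ACAUUCA of miR-181a, miR-181b, miR-181c and miR-181d took 23.2%, 25.5% and 29.1% of the mature reads in the 3 hemispheres (25.9 ± 2.98%, SD, n = 3). Of the pools 13 lay below this range, and thymus, where miR-181a is known from T cell development, lay above it at 35.5%. The let-7 seed GAGGUAG with its 9 listed members took 20.7 ± 0.53%, inside the range of the pools, of which 4 lay above the hemispheres and 10 below. The seed UCAAGUA of miR-26a and miR-26b took 6.36%, 5.99% and 5.88% of the mature reads. By this share all 14 pools lay below the lowest hemisphere, with lung the nearest at 5.16%. The seeds CGGAUCC of miR-127-3p (5.44 ± 1.03%) and UUGGCAA of miR-182 (4.65 ± 0.45%) each had 1 pool above the hemispheres, which was skeletal muscle at 6.37% and skin at 5.15%. Seed sharing also crossed family names. The seed GUAAACA, which begins miR-30a-5p, is also that of miR-384-5p, a miRNA of the X chromosome, as their sequences show.
miR-30a-5p: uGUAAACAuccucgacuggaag
miR-384-5p: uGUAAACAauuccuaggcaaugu
The reads of these 2 members differed in the pools. miR-384-5p stood at 1252, 1300 and 1212 RPM in the hemispheres and at up to 9.89 RPM in any pool, while miR-30a-5p stood at 14486, 14808 and 10449 RPM against 4438 to 55392 RPM in the pools.

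The most abundant mature miRNA of each hemisphere was miR-181a-5p, at 199509, 223513 and 254382 RPM. Thymus was higher, at 282566 RPM, and the other pools were lower. It was followed by let-7f-5p, miR-26a-5p, miR-127-3p, miR-182, let-7c-5p, miR-22-3p, miR-9a-5p, let-7i-5p, miR-27b-3p, miR-143-3p, miR-181b-5p, let-7a-5p, miR-191a-5p and miR-30a-5p, and these 15 held 76.2% of the reads. Only miR-26a-5p, let-7a-5p and miR-9a-5p among the 15 had a mean above the highest pool. miR-26a-5p stood at 63197, 59542 and 58396 RPM against at most 50616 RPM in a pool (lung). In RPM the groups did not overlap. With the TMM factors used for the test below, 1.92 to 2.00 in the hemispheres and 1.05 in lung, every hemisphere lay below lung. let-7a-5p stood at 18586, 21068 and 21062 RPM, and hemisphere 1 lay below the fat pool, at 19375 RPM. It lies opposite miR-3596a, at a mean of 6843 RPM in the hemispheres, and their reads cannot be told apart. The let-7 seed sum leaves out the reads given to miR-3596a. miR-9a-5p was far apart from all pools, as described with the neuronal miRNAs. In the pools the leading miRNA was most often miR-143-3p, in 8 of 14, and it reached 687251 RPM in stomach. The 10 leading miRNAs held 65.7 to 66.7% of a hemisphere's reads and 68.3 to 89.5% of a pool's reads.

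For the test, the 290 mature miRNAs that reached 10 counts in 3 or more of the 17 libraries were compared with edgeR's quasi-likelihood test, in which the spread between the 14 tissues is the error. Of these, 58 were called higher in brain (20% of those tested) and 70 lower (24.1%), at a Benjamini-Hochberg adjusted p under 0.05. A miRNA read in the 3 hemispheres alone can pass the count filter, while one read in a single pool cannot. The number of higher calls is therefore partly set by the filter. The hemispheres are 1 tissue counted as 3 libraries, so the p-values of this test can be too small. With the 3 hemispheres summed into 1 library, whose spread is assumed to be that of the pools, 42 were called higher (14.5%) and 0 lower (0%), against 56 and 12 at an unadjusted p under 0.05. The scaling between libraries also mattered. The TMM factors of the hemispheres were 1.92 to 2.00 and those of the pools 0.40 to 1.35, and scaling by the mature totals instead moved the median log2 fold change up by 1.06. With totals 87 were called higher (30%) and 28 lower (9.66%). All 58 higher calls were also made with totals, but only 28 of the 70 lower calls. Leaving out hemisphere 1, 2 or 3 left 23, 21 and 23 lower calls, and 52 of the 70 were lost in at least 1 of these fits, against 12 of the 58 higher calls. Log2 fold changes below are on the TMM scale, each with its SE, and p-values measure the spread between these libraries.

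**Figure D1:**
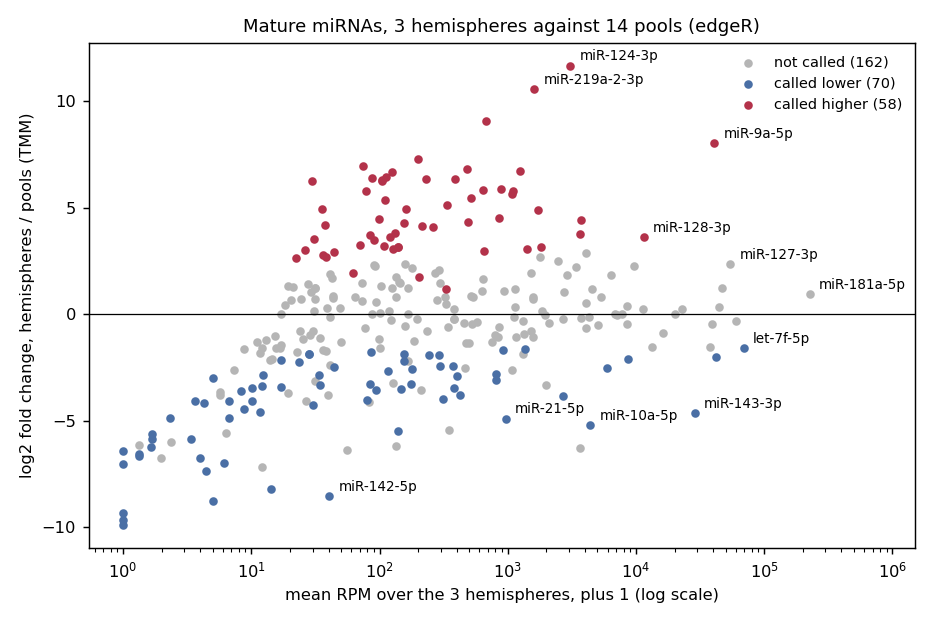
Log2 fold change of the 3 hemispheres over the 14 pools (TMM scale, edgeR) against the mean RPM over the hemispheres plus 1 (log axis) for the 290 mature miRNAs tested. The 58 called higher (red) reach a log2 fold change of 11.68 for miR-124-3p, the 70 called lower are blue, and the abundant miR-181a-5p and miR-127-3p are among those not called (grey).

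Without any test, each of the 577 listed miRNAs was also compared by rank. In 123 of them (21.3%) every hemisphere was above every pool in RPM, and in 12 (2.08%) every hemisphere was below every pool. On TMM-scaled values these numbers were 74 and 39. Of the 58 miRNAs called higher, 57 were above every pool in RPM, and the exception was miR-128-1-5p, at 34.3, 41.2 and 36.6 RPM in the hemispheres and 40.9 RPM in testes.

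The neuronal miRNAs separated the hemispheres from the pools. The list comprised both arms of miR-124, miR-9a, miR-128, miR-129, miR-132, miR-212, miR-137, miR-138, miR-153 and miR-218, in all 24 mature names of which 15 passed the count filter. Some passed through the hemispheres alone, among them miR-124-3p, miR-9a-3p, miR-129-2-3p and miR-137-3p, with 2, 3, 2 and 4 reads in the pools together. The number called in the list is thus partly set by the filter. Over all 290 tested, 20% were called higher. All 15 were called higher, with a median log2 fold change of 5.84 against -0.28 over all 290 tested, and 14 of them were still called with the hemispheres summed, the exception being miR-128-1-5p (adjusted p = 0.12). Summed over the list, the hemispheres stood at 65718, 67096 and 54390 RPM and the pools at 71.6 to 3108 RPM.

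miR-124-3p, the neuronal miRNA that represses non-neuronal transcripts, stood at 2929, 3675 and 2617 RPM in the hemispheres. In the pools together it had 2 reads, in 2 of the 14 libraries. The ratio of the read shares was 14587, with a 95% counting interval of 4036 to 120476, and the edgeR test gave an adjusted p of 2.9e-10. Its other arm, miR-124-5p, had 22, 10 and 5 reads in the hemispheres and none in the pools, which makes it at least 63.9-fold higher against a floor of 3 reads over the pools. Its 3 levels, 21.6, 20.6 and 15.3 RPM, were too low for the test.

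miR-9a, which acts in neural progenitors and neurons, was the most abundant of the neuronal miRNAs. miR-9a-5p stood at 42548, 43310 and 36569 RPM in the hemispheres and at most at 232.5 RPM in a pool (kidney), and its log2 fold change was 8.03 (SE 0.98). miR-9a-3p stood at 798, 840 and 391 RPM, with 3 reads in the pools together. Both groups were fully apart for both arms. In the annotation, miR-9b lies on the opposite strand of miR-9a, but miR-9b is not among the names analysed here.

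miR-128-3p, known from neuronal excitability, was next, at 12479, 12521 and 9658 RPM, against 39.8 to 3038 RPM in the pools (log2 fold change 3.63, SE 0.95, adjusted p = 0.0058). Thymus was the highest pool, and the groups did not overlap. miR-138-5p, a regulator of dendritic spines, stood at 2007, 1846 and 1347 RPM against at most 109 RPM, in spleen, and miR-153-3p stood at 1283, 1191 and 763 RPM against at most 21.5 RPM, in stomach. The arms of miR-132 and miR-212, which are cut from neighbouring hairpins induced by neuronal activity, were all called higher. miR-132-3p stood at 964, 1020 and 678 RPM and miR-212-3p at 736, 618 and 556 RPM, and no pool exceeded 15.7 RPM for either. miR-129-5p (443, 556 and 452 RPM) and miR-137-3p (85.3, 92.7 and 55.0 RPM) stayed above pools of at most 20.5 and 1.43 RPM. miR-218a-5p, which is also known from motor neurons, stood at 704, 694 and 553 RPM against 127 RPM in kidney. In 7 of these 8 miRNAs hemisphere 3 was the lowest, the exception being miR-129-5p.

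**Figure D2:**
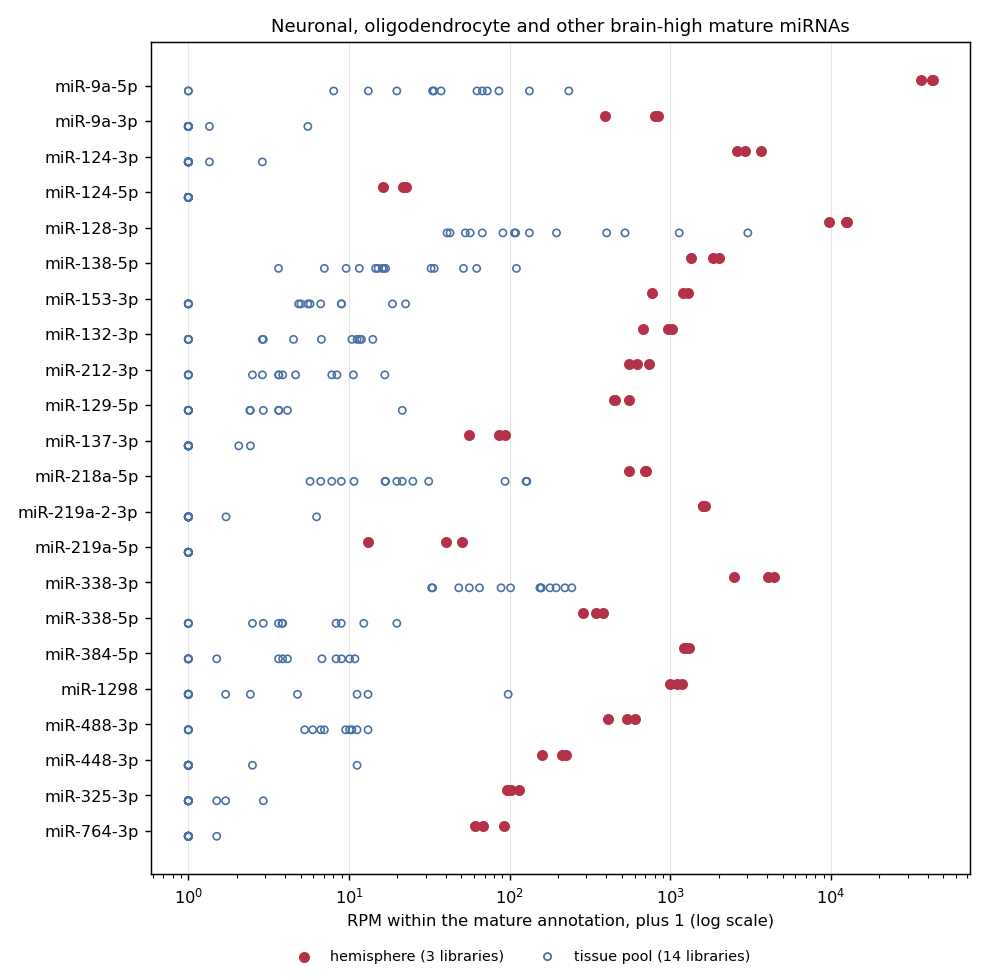
RPM within the mature annotation plus 1 (log axis) of 22 brain-high mature miRNAs, with 1 red point for each of the 3 hemispheres and 1 open circle for each of the 14 tissue pools. In every row the 3 hemispheres lie to the right of all pools. By mean the rows run from miR-9a-5p at 36569 to 43310 RPM down to miR-124-5p at 15.3 to 21.6 RPM. The lowest red point is miR-219a-5p in hemisphere 3, at 12.2 RPM. Circles at the left edge are pools without reads.

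The oligodendrocyte markers were equally distinct. Of these, miR-219a-2-3p and miR-219b passed the count filter through the hemispheres alone. miR-338-5p also depended on the hemispheres, as it and miR-3065-3p on its opposite strand together reached 20 reads in only 3 libraries. The number called is thus partly set by the filter, and over all 290 miRNAs tested 20% were called higher. Reads of miR-219b and miR-219a-2-3p cannot be told apart, so their calls are not independent. All 4 of the tested arms of miR-219 and miR-338, 6 names in the list, were called higher, also with the hemispheres summed. miR-219a-2-3p, which promotes oligodendrocyte differentiation, stood at 1589, 1589 and 1653 RPM. In the pools together it had an estimated 2.5 reads, and the ratio of read shares was 6081 (95% counting interval 2102 to 62799). Its coefficient of variation over the hemispheres was 2.29%, among the smallest of the 109 miRNAs with at least 100 reads in every hemisphere. This value depends on how the counting split reads between miR-219a-2-3p and miR-219b. miR-338-3p stood at 4429, 4075 and 2483 RPM against 31.7 to 243 RPM in the pools, with spleen the highest (log2 fold change 3.80, SE 0.45). miR-338-5p stood at 343.8, 378 and 287 RPM against at most 18.9 RPM. miR-219a-5p, the other arm, had only 40, 24 and 4 reads, and none in any pool. In GRCr8 miR-219a-2-3p lies at chr3:33516517-33516538 on the minus strand, within the spans of Cercam and of a long non-coding RNA gene, and miR-338-3p at chr10:105796345-105796367 on the minus strand, within the span of Aatk.

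Both loci have an annotated miRNA on the opposite strand. The miRNA miR-219b covers 20 bases of miR-219a-2-3p from the other side, as the near-complementary sequences show.
miR-219b: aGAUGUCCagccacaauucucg
miR-219b stood at 98.0, 85.3 and 191 RPM while miR-219a-2-3p held 89.6 to 94.9% of the reads of the pair in the hemispheres. The counting is not stated to use strand, and many of the estimated counts are fractional at such loci, so the reads of miR-219b and miR-219a-2-3p, and those of miR-3065-3p and miR-338-5p, cannot be told apart. Across the annotation 33 such pairs had both members in the lists, and their 66 names held 6.52% of the hemispheres' reads. In 6 of the pairs the 2 members had equal reads in every library, to within 1e-06 of their value, as in miR-181a-1-3p and miR-3570, each at a mean of 380 RPM in the hemispheres. Elsewhere the opposite-strand name held nearly all reads. miR-3553 stood at 3376 RPM while miR-183-5p stood at 0.001 RPM, and miR-409b stood at 636 RPM while miR-409a-3p had none.

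Several miRNAs outside both lists were as distinct. They are named because their log2 fold changes were among the 10 largest of those apart from every pool. miR-448-3p stood at 212, 159 and 223 RPM, with 4 reads in the pools together, and miR-764-3p at 67.7, 59.7 and 91.6 RPM, with 1 read. The ratios of read shares were 474 (95% counting interval 184 to 1750) and 663 (117 to 26409). Together with miR-1298, at 1175, 1104 and 989 RPM against at most 96.9 RPM in lung, they lie on the X chromosome within the span of Htr2c, the gene of the serotonin receptor 2C, and the 4 listed names of this group cover 151 kb (chrX:115490702-115642046).
miR-448-3p: uUGCAUAUguaggauguccca
miR-764-3p: gAGGAGGCcauaguggcaacugu
miR-1298: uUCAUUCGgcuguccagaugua
A further X-linked pair of hairpins, miR-384 and miR-325, lies in the span of 1 long non-coding RNA gene, and both arms of each were called higher. miR-384-3p stood at 141, 107 and 79.4 RPM, miR-325-3p at 101, 94.8 and 113 RPM and miR-325-5p at 83.4, 126 and 48.9 RPM. No pool was above 5.33 RPM for these 3 arms. Of the 249 tested miRNAs with a single locus in GRCr8, 30 lay on X, and 7 of these were called higher and 8 lower, against 48 and 64 of all 249, a share near that of all chromosomes. miR-3099 completed the 10, at 123, 130 and 82.4 RPM with 3 reads in the pools together. The 1 tested member of the rodent miR-344 family, miR-344b-1-3p, stood at 111, 109 and 88.6 RPM against at most 3.65 RPM. It had 4 reads in the pools together, and miR-325-3p and miR-325-5p had 4 and 2. These 3, miR-448-3p, miR-764-3p and miR-3099 passed the count filter through the hemispheres alone, so their calls are partly set by the filter.

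The miRNAs of the imprinted Dlk1-Dio3 region, which are made from the maternal chromosome and are known from brain, placenta and developing muscle, formed the longest list. Of its 78 mature names, 76 have a single locus in GRCr8, and these lie within 282 kb of chromosome 6 (chr6:134298094-134579828). Of the 39 tested, 17 were called higher (20% over all miRNAs tested) and none lower, with a median log2 fold change of 2.39 against -0.28 over all 290 tested, and 6 were called with the hemispheres summed. Members read mainly in the hemispheres can pass the count filter, so the number called in this list is also partly set by it. Summed over the list, the hemispheres stood at 103269, 96562 and 77655 RPM, the skeletal muscle pool at 106747 RPM and the median pool at 1731 RPM.

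The most abundant members were not those called. miR-127-3p, made opposite the retrotransposon-like gene Rtl1, stood at 63082, 57018 and 43061 RPM in the hemispheres and at 63728 RPM in skeletal muscle, with a median pool of 637 RPM. miR-434-3p stood at 11589, 10701 and 6786 RPM against 12613 RPM in skeletal muscle, and miR-411-5p at 5055, 4901 and 3728 RPM against 7935 RPM there. Neither these 3 nor miR-541-5p, at 4842, 5642 and 8745 RPM against 7201 RPM in skeletal muscle, passed the test with TMM, and with totals miR-541-5p did (adjusted p = 0.048). Reads of miR-434-3p and of miR-3543 on its opposite strand cannot be told apart. Among the called members, miR-300-3p was the second most abundant after miR-341, at 1409, 1463 and 1347 RPM against 605 RPM in skeletal muscle (log2 fold change 3.09, SE 0.96, adjusted p = 0.015, and 0.14 with the hemispheres summed). miR-487b-3p stood at 902, 808 and 870 RPM against 129 RPM (log2 fold change 4.51, SE 0.90, adjusted p = 7e-04, and 0.010 summed), and miR-323-3p at 149, 190 and 140 RPM against 13.4 RPM. For each of these 3 the hemispheres lay above every pool, and the highest pool was skeletal muscle. That pool was the highest one for 20 of the 58 miRNAs called higher in brain, and testes for 9.

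**Figure D3:**
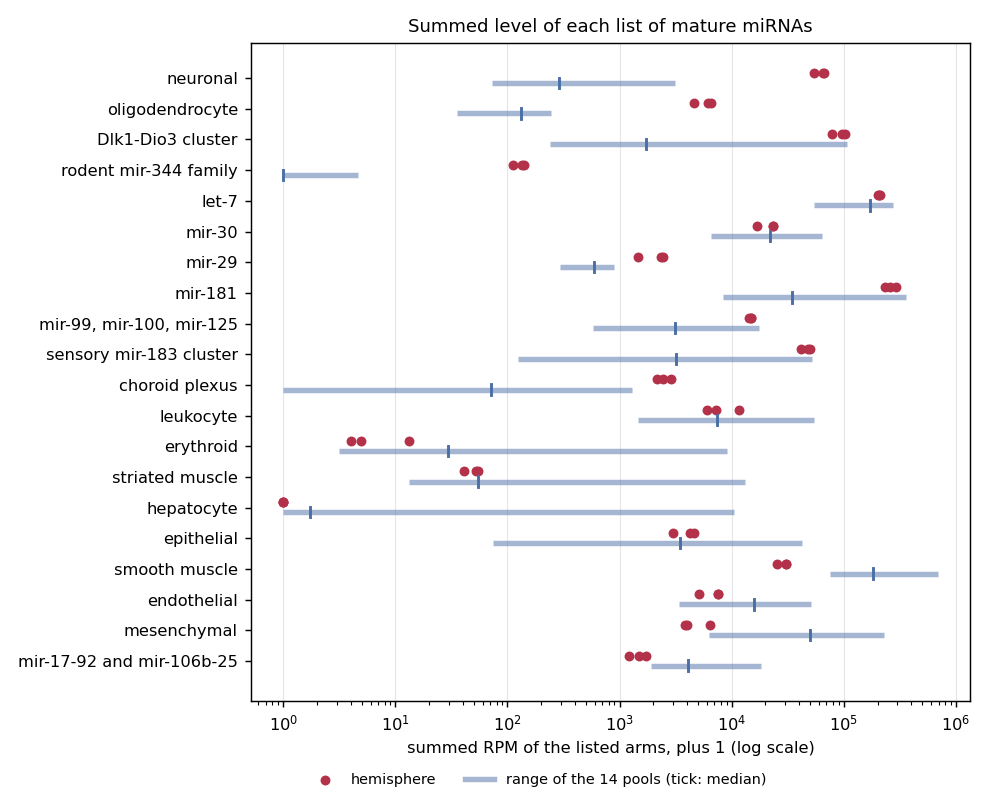
Summed RPM plus 1 (log axis) of each of 20 lists of mature miRNAs, with 1 red point per hemisphere and a blue bar from the lowest to the highest of the 14 pools with a tick at their median. The neuronal, oligodendrocyte, mir-344, mir-29 and choroid plexus lists lie above every pool, the Dlk1-Dio3 list lies just under the highest pool (skeletal muscle, 106747 RPM), and the smooth muscle list and the mir-17-92 and mir-106b-25 list lie below every pool.

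The broadly expressed families gave few calls. Over all 290 tested, 24.1% were called lower with TMM and 9.66% with totals, and 20% and 30% were called higher. The let-7 count with TMM was near the share over all. In the let-7 family, which promotes differentiation and is made in most mature tissues, 4 of 13 tested arms were called lower with TMM and none with totals, and the list's median log2 fold change was -0.43 with TMM and 0.65 with totals, so no direction can be given for the family. let-7f-5p itself stood at 70090, 64803 and 73984 RPM within the pools' range of 31090 to 159098 RPM. Of the 9 arms of the mir-30 family 1 was called lower, miR-30d-3p, again only with TMM. None of the 7 tested arms of miR-181 and none of the 10 of miR-99, miR-100 and miR-125 was called with TMM. With totals miR-125a-5p and miR-125b-5p were called higher, and both lay above every pool in RPM. miR-125b-5p, which is abundant in neurons and astrocytes, stood at 2737, 2691 and 2728 RPM against at most 1585 RPM in testes. It lies opposite miR-3588, and their reads cannot be told apart.

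In the mir-29 family, which accumulates as neurons mature, none of the 3 tested arms was called with TMM. All 3 were called higher with totals (30% over all tested). miR-29a-3p stood at 1839, 1788 and 1115 RPM against at most 710 RPM in spleen, and miR-29b-3p at 195, 185 and 116 RPM against at most 85.0 RPM. Both lay above every pool in RPM, while miR-29c-3p, at 387, 379 and 214 RPM, overlapped with kidney at 285 RPM. The choroid plexus miRNA miR-204-5p behaved likewise, at 2115, 2439 and 2837 RPM against 1278 RPM in testes (adjusted p = 0.083 with TMM and 0.037 with totals). Of the sensory mir-183 cluster, miR-182 stood at 50131, 41409 and 47825 RPM against 51454 RPM in skin and a median pool of 3183 RPM. miR-96-5p of the same cluster stood at 104, 82.4 and 116 RPM against at most 67.5 RPM in skin, and neither was called with TMM, while miR-96-5p was called higher with totals (adjusted p = 0.027).

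None of the 70 lower calls was made with the hemispheres summed. Of the 12 that lay below every pool in RPM, the one with the largest log2 fold change was miR-142-5p, a miRNA of blood cells, at 49.0, 57.7 and 12.2 RPM against 130 to 44120 RPM (log2 fold change -8.53, SE 2.66, adjusted p = 0.016, and 0.31 summed). miR-199a-5p stood at 4.90, 4.12 and 0 RPM and miR-199a-3p at 142, 181 and 88.6 RPM, against pools from 28.3 and 469 RPM upward. miR-199a is a mesenchymal miRNA, and both its arms were called lower. miR-143-3p, the miRNA of smooth muscle, stood at 30578, 25205 and 30548 RPM against 74885 to 687251 RPM (log2 fold change -4.62, SE 1.22, adjusted p = 0.006 and 0.26 summed). It was still the eleventh most abundant miRNA of the hemispheres. The other tested member of the smooth muscle list, miR-145-5p, was not called, so 1 of 2 was called lower, with TMM and with totals alike. Over all 290 tested these shares were 24.1% and 9.66%. miR-21-5p, widely expressed and raised in injury, stood at 1072, 1028 and 785 RPM against 2764 to 39182 RPM. The others of the 10 with the largest changes were both arms of miR-28, miR-10a-3p, miR-152-3p and miR-3559-5p. For miR-28-5p the hemispheres stood at 87.3, 86.5 and 104 RPM and the pools at 288 to 909 RPM, and for miR-28-3p at 544, 464 and 260 RPM and at 1042 to 4169 RPM. miR-10a-3p had 1 read in the 3 hemispheres and 306 in the pools, a ratio of shares of 59.0 in favour of the pools (95% counting interval 10.5 to 2339).

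Markers of other cell types described what else the hemispheres held. Over all 290 miRNAs tested, 24.1% were called lower with TMM and 9.66% with totals. The leukocyte list (miR-142, miR-223, miR-150, miR-146a, miR-146b and miR-155) had 5 of 7 tested arms called lower, 4 of them also with totals, with a median log2 fold change of -4.15. Its sum was 6047, 7288 and 11603 RPM in the hemispheres, of which miR-146b-5p, also known from astrocytes and microglia, gave 5462, 6689 and 10993 RPM, while miR-223-3p had 3 reads in all. The erythroid list had 3.92, 12.4 and 3.05 RPM in the hemispheres against up to 9003 RPM in spleen, and miR-144-3p had no read. Its 2 calls of 3 tested, the arms of miR-144, were lower, and none was made with totals. The hepatocyte miRNA miR-122-5p had no read in any hemisphere, which allows up to 1.64 RPM over the 3 together. Of 10 striated muscle names 6 had no read, and the sum was 51.0, 53.6 and 39.7 RPM against a median pool of 53.7 RPM, with none of 3 tested called.

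Of the epithelial list 3 of 7 tested arms were called lower, namely miR-203a-3p, miR-203b-3p and miR-205, which are miRNAs of skin. With totals 1 of the 3 was called, miR-203a-3p. The shares called lower over all 290 tested were 24.1% with TMM and 9.66% with totals. The mir-200 family members were not called, and they were present in the hemispheres: miR-429 stood at 1713, 1936 and 1078 RPM, miR-141-3p at 1177, 1137 and 913 RPM and miR-200a-3p at 776, 894 and 711 RPM, each inside the range of the pools. Both arms of the endothelial miR-126a were called lower with TMM and neither with totals, and miR-126a-5p stood at 6774, 6600 and 4379 RPM against 2929 to 43366 RPM. In the mesenchymal list 6 of 7 were called lower, 5 of them also with totals, and 8 of its 13 names had no read in the hemispheres. The lower calls were both arms of miR-199a and of miR-10a, and miR-196a-5p and miR-196b-5p. The miR-10 and miR-196 members are Hox-cluster miRNAs, so the list does not hold mesenchymal markers alone. Its median log2 fold change was -6.55, or -5.98 with miR-196a-5p and miR-196b-5p, which had no brain reads, set to a floor of 3 reads. Its hemisphere sum of 3826, 4027 and 6437 RPM was mostly miR-10a-5p. Of the mir-17-92 and mir-106b-25 clusters, which are high in dividing cells, 10 of 11 tested arms were called lower, with a median of -3.42, and 5 of 11 with totals. The part of each of these cell types in the other results was not tested.

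The 3 hemispheres differed little from each other for most miRNAs. For the 109 miRNAs with at least 100 reads in every hemisphere, which held 98.5% of the reads, the coefficient of variation (CV, SD over mean of RPM) had a median of 13.0%, with quartiles of 7.07% and 18.8% and a range from 0.885% to 37.6%. Counting alone would give a median CV of 3.53%, and 100 of the 109 were above their own counting value, 85 by more than 2 times. The biological coefficient of variation that edgeR estimated was 15.5% over the hemispheres alone (210 miRNAs) and 107% with the pools. Across these 109 miRNAs the median SD of log2 RPM was 0.19 over the hemispheres and 1.36 over the pools.

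The steadiest were miR-125b-5p (CV 0.885%), miR-219a-2-3p (2.29%), miR-99b-5p (2.43%), miR-98-5p (2.50%) and miR-3557-5p (2.79%), of which the first 4 lay below their counting value. The name miR-3557-5p lies opposite miR-378a-3p over 21 bases and holds nearly all reads of the pair. Reads of these 2 names cannot be told apart. The same holds for miR-125b-5p with miR-3588 and for miR-219a-2-3p with miR-219b. The CVs of these names therefore depend on how the counting split the reads. The 4 with a CV of 30% or more were miR-146b-5p (37.6%), miR-9a-3p (36.7%), miR-541-5p (32.2%) and miR-10a-5p (31.9%), followed by miR-301a-3p (28.4%). In each of these 5 hemisphere 3 was the one apart, being high for miR-146b-5p, miR-541-5p and miR-10a-5p and low for miR-9a-3p and miR-301a-3p.

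Hemisphere 3 stood apart in general. In 65 of the 109 miRNAs it was the one farthest from the other two, against 22 each for hemispheres 1 and 2. The median absolute log2 difference was 0.12 between hemispheres 1 and 2, and 0.28 between hemisphere 3 and their mean. Without hemisphere 3 the median CV was 6.39%. Pearson's r of log2(RPM + 1) across these 109 miRNAs, which are not independent, was 0.996 between hemispheres 1 and 2, and 0.984 and 0.987 between hemisphere 3 and these. Hemisphere 3 also had the fewest reads, 327488, and its part in the difference was not tested. Of the 109 miRNAs 69 were lower in hemisphere 3 than the mean of the others (median log2 difference -0.15). In the neuronal list this was so for 10 of 11 (median -0.34), in the Dlk1-Dio3 list for 11 of 13 (-0.21), in the mir-30 family for 6 of 6 (-0.49) and in the let-7 family for 2 of 9 (0.08). The summed leukocyte list was 0.80 higher on the log2 scale in hemisphere 3 and the mesenchymal list 0.71 higher, and 1 miRNA gave most of each sum (miR-146b-5p and miR-10a-5p). Other members of these lists were lower there, among them miR-142-5p (49.0, 57.7 and 12.2 RPM) and miR-199a-3p (142, 181 and 88.6 RPM), so the sums do not describe their lists as a whole. The summed oligodendrocyte list of hemisphere 3 differed from the mean of the others by -0.45 on the log2 scale. With 1 library, these differences have no replicate check.

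**Figure D4:**
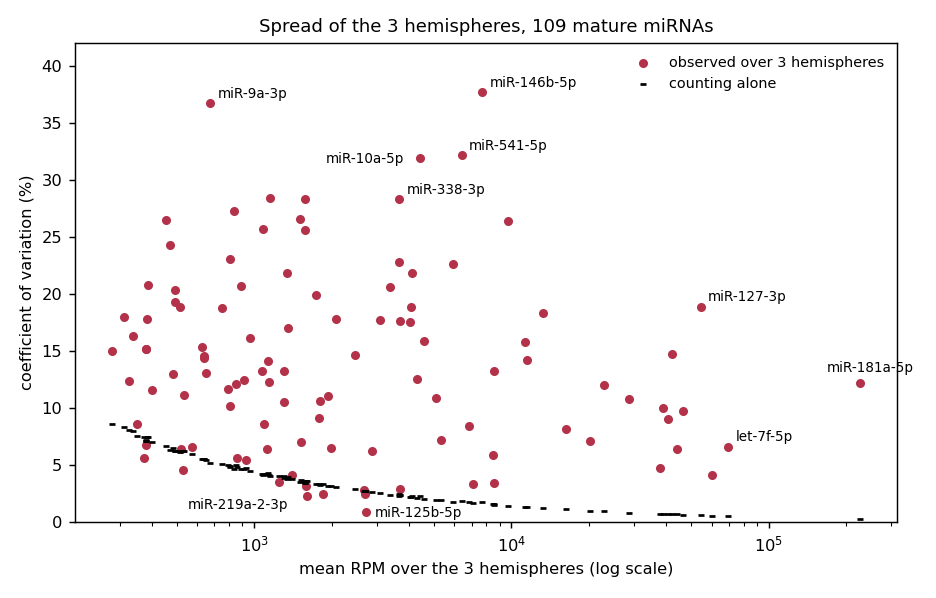
Coefficient of variation of RPM over the 3 hemispheres (red points) against mean RPM (log axis) for the 109 mature miRNAs with at least 100 reads in every hemisphere, with black dashes at the value that counting alone would give. Most points lie above their dash, with a median of 13.0% against 3.53%, and miR-146b-5p and miR-9a-3p stand highest at 37.6% and 36.7%.

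At equal depth the hemispheres showed more different miRNAs than any pool. In the full libraries, at least 3 reads in every hemisphere were found for 280 of the 577, and at least 1 read in any of them for 464. At the depth of the shallowest library, 97782 reads, 306 to 325 miRNAs were expected with at least 1 read in a hemisphere (317 ± 9.52, SD, n = 3) and 206 to 287 in a pool (median 221). A level of 10000 RPM or more in every hemisphere was reached by 15 miRNAs, 1000 RPM by 66 and 100 RPM by 153. There were 5 miRNAs with 3 reads or more in every hemisphere and none in the pools, namely miR-219a-5p, miR-1224, miR-124-5p, miR-135a-5p and miR-107-5p. Of these only miR-1224 passed the count filter, through the hemispheres alone, with 21, 17 and 10 reads. The edgeR test called it higher (adjusted p = 0.0012). It was picked here for having no pool reads, so this call is not separate support. It was at least 82.9-fold higher against a floor of 3 reads over the pools.

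The 2 arms of a hairpin were compared within each library, where the scaling cancels. The lists hold 240 names of 5p arms, 263 of 3p arms and 74 without an arm, and 193 hairpin names have both arms. With at least 20 reads on the pair in every hemisphere, 104 pairs could be read: the 5p arm was ahead in all 3 hemispheres for 60 of them and the 3p arm for 42, and only miR-325 and miR-376b changed sides among the hemispheres. The median SD of log2(5p/3p), with 0.5 read added to each arm, was 0.59 over the hemispheres. miR-9a was 98.4 ± 0.47% 5p (SD, n = 3), miR-384 was 92.04 ± 2.02% and miR-30a was 94.1 ± 0.81%. miR-124 was 0.62 ± 0.09% 5p, miR-338 was 8.68 ± 1.59%, miR-132 was 20.6 ± 1.35% and miR-153 was 1.64 ± 0.06%. Some duplexes gave both arms in quantity, such as miR-30e at 36.1 ± 1.70%, miR-212 at 37.8 ± 7.47% and miR-325 at 44.1 ± 13.4% 5p.

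Between brain and the other tissues the arm choice rarely differed. Of 76 pairs with enough reads in all hemispheres and at least 7 pools, 2 were called toward 5p in brain (2.63%) and 1 toward 3p (1.32%) by limma on the log2 ratios. In none of the 76 did the dominant arm of the hemispheres differ from that of the mean pool. An exact permutation test of each pair, two-sided over up to 680 assignments, called none after adjustment (smallest p 0.00147, smallest adjusted p 0.0559), and it gave an unadjusted p under 0.05 for 6 pairs toward 5p and 4 toward 3p, where limma gave 7 and 4. The calls were sensitive to single libraries: toward 5p there were none without hemisphere 2 or 3, 1 without fat, heart, kidney, lung or stomach and 4 without large intestine or skeletal muscle, and toward 3p there was none without hemisphere 1 or 2.

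miR-25, of the mir-106b-25 cluster in Mcm7, was called toward 5p. Its 5p arm made 0.49%, 1.55% and 0.96% of the pair's reads in the hemispheres, on 5, 6 and 2 reads, and 0 to 0.24% in the pools (log2 difference 2.90, SE 0.64, adjusted p = 0.0076). The hemispheres lay above every pool. miR-27a was called toward 3p (log2 difference -3.13, SE 0.65, adjusted p = 0.0076). Its 5p arm had 0 reads in each hemisphere beside 318, 156 and 81 reads of miR-27a-3p, whereas it made up to 10.9% of the pair in the pools, with a median of 2.70%. With no 5p read in brain, the size of this difference is set by the 0.5 added and the reads of the 3p arm. miR-27a-3p differs from the far more abundant miR-27b-3p in 1 base, so the counting could have split reads between them, and miR-25-3p shares its seed with miR-92a-3p.
miR-27a-3p: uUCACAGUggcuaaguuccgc
miR-27b-3p: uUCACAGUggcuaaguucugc
miR-27a-5p: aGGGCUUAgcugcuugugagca
miR-25-3p: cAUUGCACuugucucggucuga
miR-25-5p: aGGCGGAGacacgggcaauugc
miR-1843b was the other pair called toward 5p (log2 difference 2.13, SE 0.54, adjusted p = 0.036, over 8 pools). Its 3p arm had no read in any hemisphere and its 5p arm 309, 147 and 122 reads, so its ratio is set by the reads of the 5p arm and the 0.5 added.

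**Figure D5:**
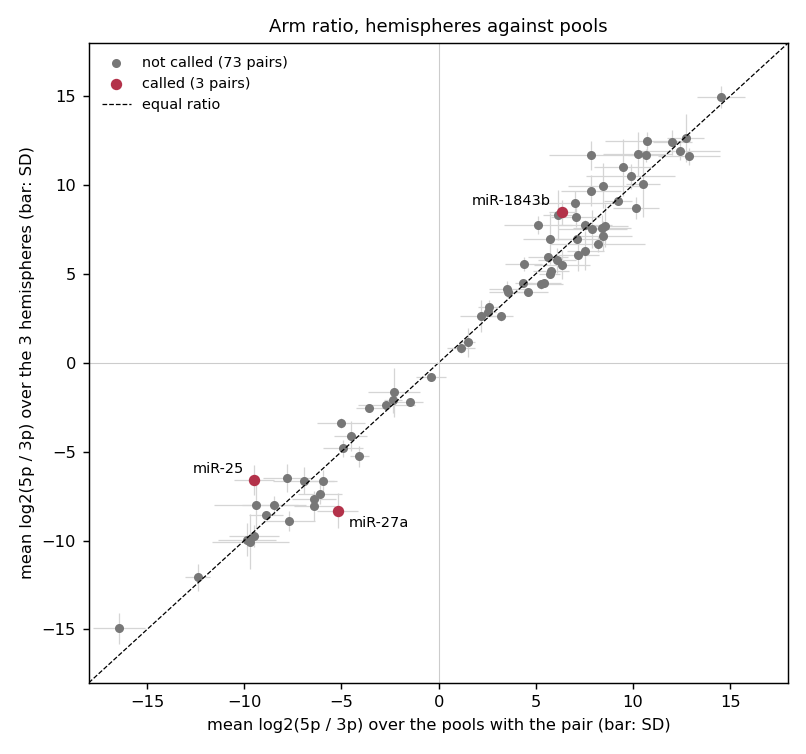
Mean log2(5p/3p) over the 3 hemispheres against the mean over the pools that held the pair, for 76 pairs with SD bars in both directions, and a dashed line where the 2 are equal. The points follow the line over the whole range from 3p-dominant to 5p-dominant pairs, and the 3 called pairs (red) are miR-25 and miR-1843b above the line and miR-27a below it.

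Both arms of a hairpin tended to be called together in the comparison of levels. Of 51 hairpins with both arms tested, 7 had both arms called higher (miR-9a, miR-132, miR-212, miR-325, miR-338, miR-384 and miR-433) and 11 had both called lower, and in none was 1 arm called higher and the other lower. In 3 only 1 arm was called higher (miR-337-3p, miR-369-5p and miR-376b-3p), in 7 only 1 was called lower, and in 23 neither was called. The arms of a hairpin share their precursor and are not independent.

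The share of arm-named reads on 5p arms was 71.6%, 73.0% and 77.4% in the hemispheres (74.0 ± 3.00%, SD, n = 3) and 21.5 to 76.6% in the pools (mean 58.9%, median 64.5%). The ranges overlapped, and the difference of 15.1 percentage points did not pass an exact permutation test over 680 assignments (two-sided p = 0.094, with 0.00147 the smallest possible). Without the most abundant miRNA of each library the order of the means turned, to 65.8 ± 2.72% in the hemispheres and 69.8% in the pools (exact permutation p = 0.547).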

How the data were processed

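Small RNA of 3 single hemispheres and 14 pools, each holding the miRNA of 3 rats, was extracted with miRNeasy, made into TruSeq small RNA libraries and sequenced on a MiSeq by the authors. Per the study's methods, bases under phred 20 were trimmed, reads were aligned with Bowtie to Rn5 and quantified against miRBase and RefSeq in Partek Flow and Strand NGS. The deposited annotation column names miRBase release 21. Tool versions and strand handling in counting are not given in the sources used here. The authors deposited estimated counts per mature miRNA, made by this quantification and not normalized, and every deposited column used belongs to a labelled library (0 columns of no sample).

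From these, counts of the mature annotation were rounded and tested with edgeR 4.0.16 (quasi-likelihood, TMM, at least 10 counts in at least 3 of 17 libraries, Benjamini-Hochberg adjustment, threshold 0.05). Arm pairs with at least 20 reads in every hemisphere and in at least 7 pools were tested with limma 3.58.1 on log2 ratios after adding 0.5 to each arm. DESeq2 1.42.0 was an alternative. Single values were tested by exact permutation. Scripts ran in R 4.3.3 and Python 3.11.15 and were tested on simulated data. Intervals (exact, 95%) and floors of 3 reads cover counting error only. RPM used unrounded counts.

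Groups came from the sample labels. The hemispheres share 1 tissue, and pools have 1 library a tissue, so p-values treat tissues as replicates. Named miRNAs were the tissue markers, the 15 most abundant, the 10 largest changes in each direction apart from every pool, the 5 highest and 5 lowest CVs, the called arm pairs, up to 4 members of each list and the 5 leading seeds with their members. Other named miRNAs (among them miR-1224, miR-384, miR-325, miR-325-5p, miR-3553 and miR-409b) were chosen after their values were seen. The members and lists were chosen with earlier results of these data known. Serum libraries and other RNA classes were not analysed here. The alternatives were other scalings, tests, filters, pseudocounts, a summed brain library and each library left out. Summing features that overlap on opposite strands was chosen after seeing the data.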

Additional observations from a re-analysis of the deposited data

How the results depend on the processing

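No paired analysis was possible because the pools carry no replicate numbers that match the hemispheres. The higher calls numbered 94 without the count filter and 4 with at least 10 counts in every library, where few miRNAs are left, and 48 to 85 with each library left out. The lower calls numbered 28 with totals, 43 with DESeq2-type size factors, 25 with at least 10 counts in every library, 0 with the hemispheres summed, 46 with opposite-strand features summed, and 21 to 74 with each library left out. The arm calls toward 5p numbered 4 with a pseudocount of 1, 1 with a minimum of 50 reads, 1 with the hemispheres summed, 0 by the permutation test and 0 to 4 with each library left out, and those toward 3p 0 by the permutation test and 0 to 1 with each library left out. On TMM-scaled values 74 miRNAs lay above and 39 below every pool (128 to 150 and 14 to 17 in RPM with each library left out). The median CV was 6.39 to 14.8% with each hemisphere left out, the equal-depth number was 192 at 9778 reads, and the 5p share was 65.8% without the most abundant miRNA of each library, with the order of the means turned. For the named called miRNAs, 842 recomputed values kept the direction and the side of the threshold and 113 kept the direction only. The causes were not tested. Depth limits low miRNAs in the pools, where 3 reads are worth up to 30.7 RPM.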

Other observations

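Of the 577 listed miRNAs, 113 had under 1 read over the hemispheres, and 27 of these reached 100 RPM in a pool. A group led by the testes pool was prominent among them. miR-741-3p stood at 4848 RPM there, miR-881-3p at 4837 RPM, miR-871-5p at 2823 RPM, miR-743b-5p at 2771 RPM and miR-743a-3p at 2086 RPM, all with no read in any hemisphere. They belong to the rapidly evolving miRNA cluster of the X chromosome known from male germ cells. The hepatocyte and spleen-led miR-122-5p and miR-144-3p were the others among the 7 that reached the highest pool levels, at 10505 and 2331 RPM.

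Across the 290 tested miRNAs, Pearson's r between mean log2 levels of the hemispheres and each pool ranged from 0.51 (pancreas, liver and spleen) to 0.66 (stomach). miRNAs are not independent and all pools were compared with the same hemispheres, so this order is a description. By position, 19 of 49 tested miRNAs of chromosome 6 were called higher and 2 lower. The 19 hold the 17 called members of the Dlk1-Dio3 list, so they are not a separate observation. The others were miR-153-3p and miR-3578, and miR-3578 had the same reads as miR-369-5p in every library. Of 32 tested miRNAs of chromosome 10, 7 were called higher and 15 lower, against 48 higher and 64 lower of all 249 with a single locus. The share called higher on chromosome 10 was near that of all chromosomes. A U as the first base was found in 45.7% of the tested miRNAs with a sequence, 48.1% of those called higher and 48.5% of those called lower.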
